A study of Drosophila melanogaster with 2 samples.

Results

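First-intron peaks are the sites of scrt-GFP binding whose summit lay in the first intron of a protein-coding gene and away from any annotated promoter. A peak was counted when its summit was more than 500 bp from every protein-coding transcription start site (TSS), more than 1000 bp from every non-coding TSS, in no exon, and between the first and second exon of at least 1 transcript. The rule used position only and no measured value. It selected 1477 peaks of the authors' optimal list (23.1%, Wilson 95% interval 22.0 to 24.1) and left 4930 at other locations. The selected peaks lay in 863 host genes. Their 1477 summits fell in 1457 distinct intervals, since some deposited intervals carry several summits. Just inside the coding TSS limit, 30 peaks at 501 to 550 bp had a median signal of 340, and just outside it, 41 first-intron peaks at 451 to 500 bp had a median of 301.

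The data are chromatin immunoprecipitation and sequencing of whole Drosophila melanogaster embryos of mixed sex, collected 4 to 24 h after laying. The only group is a transgenic fly line whose scrt gene product ends in a C-terminal GFP tag, with 2 biological replicates numbered 3 and 4. There is no untagged or mutant group, so each result below is a description of peak positions and sequence within 1 condition. The labels' free text calls both libraries input controls, whereas the antibody field names scrt; they were taken here as scrt immunoprecipitations. Embryos and tissues were pooled, so strong binding in a few cells and weak binding in many cannot be told apart. No expression data were used, and the labelled tissue could not be checked against marker genes.

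Scratch, the product of scrt, belongs to the Snail family of zinc-finger repressors, is expressed in developing neurons and promotes the neuronal fate. Snail-family proteins recognise a subclass of E-box, CAGGTG, often within a longer CAACAGGTG. First introns of fly genes are commonly longer than later ones and often contain enhancers, the distal elements through which transcription factors control a gene.

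The sequences of 6 first-intron peaks with the longer site are shown because this word was more frequent at first-intron summits than beside them. Each is 61 bases of the Release 6 (dm6) assembly from RefSeq, printed 5′ to 3′ on the strand that reads CAACAGGTG, with that word in capitals. They are given in order of signal, and a window was printed only where its 61 bases touch no annotated exon. The unc80 window is chr3R:27663055-27663115 (minus strand), the Esyt2 window chr3R:24550149-24550209 (plus), the trbl window chr3L:20398385-20398445 (plus), the lili window chr3R:24813134-24813194 (plus), the mGluR window chr4:937377-937437 (minus) and the Mur89F window chr3R:17198166-17198226 (minus). The crb window (signal 532) touches an annotated exon and is not printed.
unc80: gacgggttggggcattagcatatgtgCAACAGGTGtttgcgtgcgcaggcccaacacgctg
Esyt2: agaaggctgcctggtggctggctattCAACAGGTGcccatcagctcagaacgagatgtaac
trbl: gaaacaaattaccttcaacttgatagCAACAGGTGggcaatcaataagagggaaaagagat
lili: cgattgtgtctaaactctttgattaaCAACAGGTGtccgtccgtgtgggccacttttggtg
mGluR: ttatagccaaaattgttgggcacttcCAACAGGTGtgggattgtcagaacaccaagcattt
Mur89F: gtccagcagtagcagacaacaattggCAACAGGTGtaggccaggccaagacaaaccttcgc

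The word lay 11 bp from the summit at unc80, at the summit base at Esyt2, 1.00 bp away at lili, 37.0 bp at trbl, 34.0 bp at Mur89F and 63.0 bp at mGluR. The unc80 gene encodes an auxiliary subunit of the sodium leak channel, Esyt2 an extended synaptotagmin, trbl a pseudokinase that restrains cell division, mGluR a metabotropic glutamate receptor and Mur89F a predicted mucin. Their signals were 5640, 1463, 852, 674 (lili), 553 and 446.

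Most first-intron peaks of any signal lacked the word. It was held by 22 of the 1477 (1.49%) and by 4 of the strongest 295 (1.36%). For comparison, 3 of the strongest without it are shown as the 101 bases centred on the summit (plus strand). Any E-box (CANNTG) is in capitals. The ush window is chr2L:481030-481130, the RhoGAP71E window chr3L:15593559-15593659 and the ics window chr2L:13640585-13640685. The number of E-boxes in them was 0, 0 and 1, the last a CAGCTG.
ush: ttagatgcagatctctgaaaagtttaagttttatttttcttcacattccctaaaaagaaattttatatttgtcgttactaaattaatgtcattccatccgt
RhoGAP71E: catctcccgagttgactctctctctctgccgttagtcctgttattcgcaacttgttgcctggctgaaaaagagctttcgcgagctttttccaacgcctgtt
ics: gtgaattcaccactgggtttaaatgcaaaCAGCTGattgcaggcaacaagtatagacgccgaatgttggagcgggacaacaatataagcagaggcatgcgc

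The strongest first-intron peak was in ush, which encodes a zinc-finger cofactor of GATA factors (FBgn0003963; 2L, 480862 to 481436, dm6). Its signal, the authors' enrichment value, was 7121, rank 4 in the optimal list, and an overlapping peak ranked 8 in replicate 3 and 3 in replicate 4. The summit was 4860 bp from the TSS of that ush transcript and 1392 bp from the nearest annotated TSS. The second was in unc80 (FBgn0039536; 3R, 27662756 to 27663413), with a signal of 5640, rank 9, at ranks 12 and 8 in the replicates. Its summit was 635 bp from the nearest annotated TSS. Only these 2 first-intron peaks were among the 20 leading optimal peaks, and 14 were among the leading 100.

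Signals of 4653 at RhoGAP71E, 4649 at Mef2, a muscle transcription factor, 4309 at ics, a regulator of integrin adhesion, and 4133 at Lk6, a kinase of the translation factor eIF4E, followed. Their ranks in replicates 3 and 4 were 22 and 30 (RhoGAP71E), 16 and 37 (Mef2), 30 and 39 (ics), and 65 and 18 (Lk6). The peaks at pdm3, a POU-domain factor of neurons (3632), CG9663 (3558), coro, the actin-binding protein coronin (3173), CG9328 (3114), CG32772 (3111) and grp, the fly Chk1 checkpoint kinase (3055), came next. The remaining 8 of the leading 20 were at CG4496 (2998), Tlk, a chromatin kinase (2774), slim (2611), Pde1c, a cyclic nucleotide phosphodiesterase (2535), chif and Hyls1, whose first introns share the site (2531), br and Mur2B, which also share one (2350), the histone methyltransferase gene trx (2274) and the corepressor gene sbb (2220). All 20 were among the leading peaks of both replicates (the strongest of each, as many as the optimal list holds), at ranks 8 to 222 in replicate 3 and 3 to 186 in replicate 4, and 10 of them ranked better in replicate 3. CAACAGGTG or CAGGTG lay within 100 bp of the summit at 1 of the 20, unc80. Over all 1477 first-intron peaks these words were at 1.49% and 7.11% of summits. The GC content of the 20 windows ran from 29.9% to 58.7%.

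Over all 1477 first-intron peaks the signal ran from 193 to 7121, with a median of 318 and quartiles of 236 and 487. The lower end is the end of the optimal list itself. The weakest 50 members had signals of 193 to 197, and the 50 strongest first-intron peaks below the threshold had 188 to 193. First-intron peaks were weaker than promoter peaks and close to the other classes outside promoters. Of the first-intron peaks 46.0% were in the upper 3203 of the optimal list, against 56.4% of the 2845 promoter peaks (odds ratio 0.658, two-sided Fisher's exact test, adjusted p = 2.51e-10 over 3 comparisons). The shares of later-intron peaks (42.4%, odds ratio 1.16, interval 0.966 to 1.39, adjusted p = 0.173 in the exact test) and intergenic peaks (44.1%, adjusted p = 0.408) did not differ detectably from that of first-intron peaks. The comparison with later introns passed with replicate 3 alone (odds ratio 1.24, exact test, adjusted p = 0.0233), and its direction turned when only summits held in the first intron by every spanning transcript were kept (0.986). Peaks are not replicates, and these tests compare sets of sites within the 2 libraries.

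**Figure D1:**
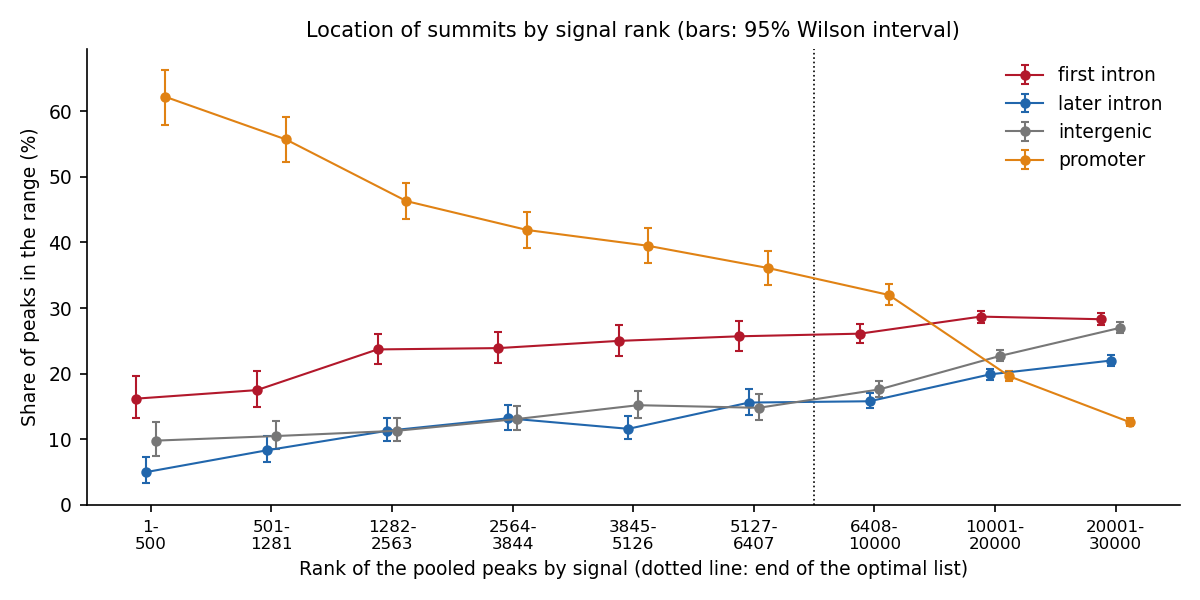
Share of summits (%) in first introns, later introns, intergenic sequence and promoters by rank of the pooled peaks, from strongest (left) to weakest; bars are Wilson 95% intervals and the dotted line is the end of the optimal list. First introns rose from 16.2% at ranks 1 to 500 to 28.3% at ranks 20001 to 30000, while promoters fell from 62.2% to 12.6%.

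The first-intron share grew from the strongest to the weakest peaks. It was 16.2% (13.2 to 19.7) at ranks 1 to 500, 23.7% at ranks 1282 to 2563, 25.7% (23.4 to 28.1) at ranks 5127 to the end of the optimal list and 28.7% at pooled ranks 10001 to 20000. Later introns went from 5.0% to 15.6% and intergenic sequence from 9.80% to 14.8% over the same optimal ranks, and promoters from 62.2% to 36.1%. The plot of location by signal rank shows these shares side by side.

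Relative to the sequence available, first introns held more peaks than later introns or intergenic sequence. The 21.8 Mb of sequence that meets the same rule carried 67.8 peaks per Mb (exact Poisson 95% interval 64.4 to 71.3). Later introns, with 753 peaks in 29.2 Mb, carried 25.8 per Mb (23.9 to 27.7), intergenic sequence 23.3 per Mb (21.8 to 25) and promoters 186 per Mb. Sequence near a non-coding TSS carried 59.1 per Mb (52.7 to 66.1), an interval that overlaps that of first introns. The ratio of first to later introns was 2.63, and it was 2.71 and 2.49 in the leading peaks of replicates 4 and 3 taken alone. Sequence in the first intron of some transcript and a later intron of another counted as first intron, which was so for 542 of the 1477 summits. With sequence in a later intron of another transcript of the same gene left out of the first-intron class, the ratio was 2.04. Over the chromosome arms the density was 63.1 per Mb on 2L, 75.9 on 2R, 69.8 on 3L, 67.9 on 3R and 64.4 on X, with intervals that overlapped. The small chromosome 4 had 2 peaks, or 14.6 per Mb (1.77 to 52.9).

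First introns begin at the end of the first exon, downstream of a TSS, so density was also taken by distance from the nearest TSS of any gene. It fell from 117 per Mb (104 to 130) at 501 to 1000 bp to 91.6 at 1001 to 2000 bp, 64.1 at 2001 to 5000 bp, 49.9 at 5001 to 10000 bp and 35.5 (29.8 to 41.9) beyond 10000 bp. Later introns at the same distances held 47.0, 36.6, 33.1, 31.8 and 15.1 peaks per Mb. The ratio of first to later introns was thus 2.48, 2.51, 1.93, 1.57 and 2.34, and the intervals of the 2 classes did not overlap in any of the 5 bins. In the 1281 longest first introns of 5000 bp or more, 1 per gene, the 5′ part up to the midpoint held 69.8 peaks per Mb (64.3 to 75.6) and the 3′ part 52.8 (48.1 to 57.9).

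**Figure D2:**
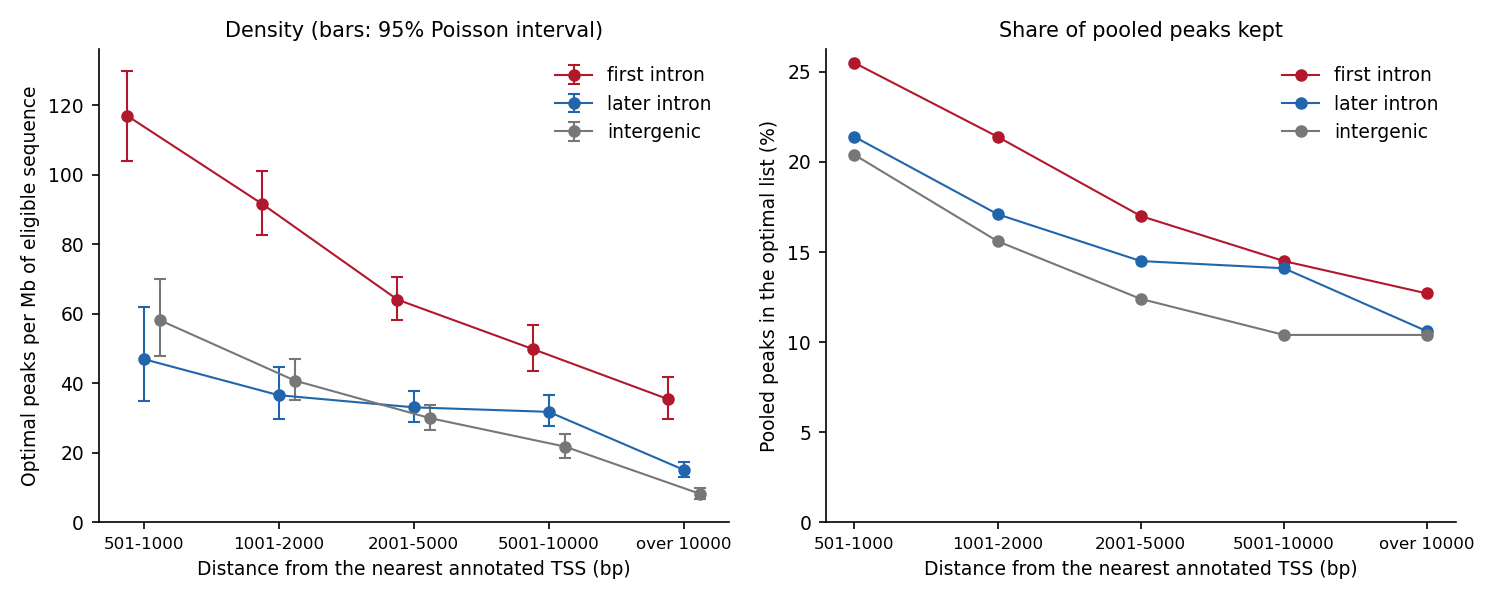
Left, optimal peaks per Mb of eligible sequence with exact Poisson 95% intervals; right, share of pooled peaks kept in the optimal list (%); both by distance (bp) from the nearest TSS for first introns, later introns and intergenic sequence. Density in first introns fell from 117 to 35.5 per Mb and was above that of later introns in all 5 bins, while the kept shares lay closer together.

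Pooled peaks in first introns were kept in the optimal list more often than those of later introns. The optimal peaks were exactly the strongest of the pooled peaks. The kept shares therefore compare signal ranks and do not measure agreement between replicates. Of the 30000 pooled peaks, 21.4% were kept in the optimal list. In first introns 1477 of 8109 were kept (18.2%, 17.4 to 19.1), against 753 of 5512 in later introns (13.7%, odds ratio 1.41, two-sided Fisher's exact test, adjusted p = 1.38e-12) and 829 of 6437 in intergenic sequence (12.9%, odds ratio 1.51, adjusted p = 2.18e-18). At promoters 39.4% were kept (exact test, odds ratio 0.342 for first introns, adjusted p = 1.92e-187). The first-intron share was thus itself below the 21.4% of all locations. In replicate 3 alone 18.6% of first-intron peaks and 14.5% of later-intron peaks were among its leading peaks, and in replicate 4 alone 17.3% and 13%. Within the 5 distance bins, a split chosen after seeing the data, the odds ratio against later introns was 1.26, 1.33, 1.21, 1.03 and 1.23, and none passed the exact test (adjusted p from 0.106 to 0.794). All 5 were above 1, and each bin holds fewer peaks, so the lack of a call does not show that the difference is absent. The kept share fell with distance in first introns, from 25.5% to 12.7%, and in later introns, from 21.4% to 10.6%. At 501 to 1000 bp there were 1225 pooled peaks in first introns and 234 in later introns, and beyond 10000 bp 1076 and 1845. The part of distance in the excess was not tested.

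The replicates shared most first-intron peaks. Of the 1477, 1143 (77.4%, 75.2 to 79.4) overlapped by at least 1 bp a leading peak of both replicates, against 77.7% of all optimal peaks. The share was 99.5% at ranks 1 to 1281, 97.7% at ranks 1282 to 2563, 94.4% at ranks 2564 to 3844, 76.9% at ranks 3845 to 5126 and 28.6% (24.0 to 33.7) from rank 5127 to the end. Against the full lists of 30000 peaks, 1450 (98.2%) overlapped a peak of both replicates. A matching peak was lacking for 21 in replicate 3 and for 6 in replicate 4. The optimal list was made from these same replicates, so these shares are no independent measure of agreement. Replicates 3 and 4 gave 1493 and 1410 first-intron peaks among their own leading peaks.

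**Figure D3:**
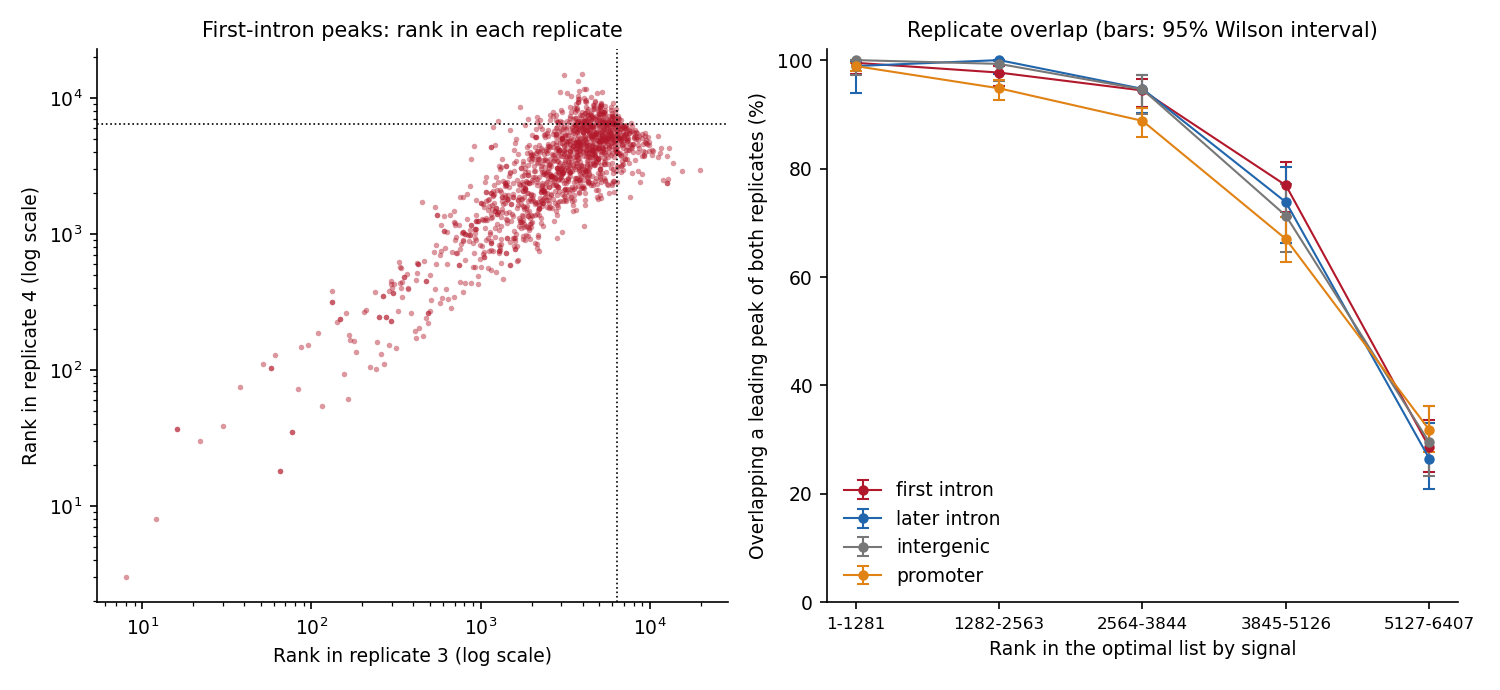
Left, rank of the overlapping peak in replicate 3 and replicate 4 for each first-intron peak (log scales; dotted lines at the number of optimal peaks); right, share of optimal peaks (%) overlapping a leading peak of both replicates by rank range, with Wilson 95% intervals. Strong first-intron peaks ranked high in both replicates, and the share fell from 99.5% to 28.6% across the list.

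Around the summits, CAACAGGTG was the Snail-family word that differed from neighbouring sequence. It was found within 100 bp of 22 first-intron summits (1.49%, 0.986 to 2.25) and in 5 of the paired windows of equal width centred 1000 bp away (0.339%; odds ratio 4.40, interval 1.63 to 14.9, exact McNemar test, adjusted p = 0.0160 over 19 motifs and 5 locations). CAACAGGTG was also called higher than in paired windows at later-intron (odds ratio 15.0), intergenic (9.50) and promoter summits (5.62). Of the 19 motifs 3 passed at first-intron summits (15.8%), 2 of them higher (10.5%), and over all 5 locations 19 of 95 tests passed. The shorter CAGGTG, which the longer word contains, was at 7.11% of summits and 6.84% of paired windows (exact test, adjusted p = 1.00). The call for CAACAGGTG rests on few peaks. It was not made with replicate 4 alone (odds ratio 4.00, exact test, adjusted p = 0.0702) and was made with replicate 3 alone (5.40, adjusted p = 0.00119), and it was lost with a rule of 1000 bp from every TSS (4.00, adjusted p = 0.0802). It was also lost when every spanning transcript had to hold the summit in its first intron (odds ratio 3.00, exact test, adjusted p = 0.164), in the stronger 3203 peaks (4.00, adjusted p = 0.257) and in pairs that both lay in first introns (4.67, adjusted p = 0.110). Of the summits of the leading peaks of replicates 3 and 4, 1.81% and 1.13% held the word, against 0.335% and 0.284% of their paired windows.

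Copies of CAACAGGTG lay close to the summits. The 22 copies had a median distance of 19 bp from the summit base, 17 (77.3%) were within 25 bp and 21 within 50 bp, whereas 0 of the 5 copies in paired windows were within 25 bp of the window centre. With the summits of replicate 4 or replicate 3 alone, 43.8% and 55.6% were within 25 bp. For CAGGTG, 41.9% of the 105 nearest copies were within 25 bp, against 29.7% of 101 in paired windows. The word ran in the direction of the host gene in 8 of 22 peaks (36.4%, 19.7 to 57.0), and CAGGTG in 51 of 105 (48.6%). The base just before CAGGTG was A in 49.1% (39.8 to 58.4) of 108 copies at summits and in 21.0% (14.3 to 29.7) of 105 copies in paired windows. These copies include those within CAACAGGTG, where that base is A by definition. Without them, a split made after seeing the data, it was A in 36.0% (26.7 to 46.6) of 86 copies at summits and in 17.0% (10.9 to 25.5) of 100 in paired windows. The base before that was then A in 25.6% and 24.0%, and the next one upstream C in 20.9% and 18.0%.

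Peaks with these words were not detectably stronger. Among the 22 with CAACAGGTG, 63.6% were in the stronger 738 of the 1477 members, against 49.8% of the 1455 without (odds ratio 1.77, interval 0.687 to 4.89, two-sided Fisher's exact test, adjusted p = 0.206 over 3 comparisons), and the medians were 347 and 316. For CAGGTG the shares were 60.0% of 105 and 49.2% of 1372 (odds ratio 1.55, interval 1.02 to 2.38, exact test, adjusted p = 0.101). By 5 groups of 295 or 296 members from strongest to weakest, CAACAGGTG was held by 4, 6, 7, 1 and 4 peaks.

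Of the other motifs at first-intron summits, 1 was called higher and 1 lower. GAGAG, bound by the GAGA factor, was at 29.7% of summits and 25.1% of paired windows (odds ratio 1.26, exact McNemar test, adjusted p = 0.0358), and its odds ratio was 1.15 with replicate 3 alone (adjusted p = 0.322). The GAGAG call was also lost with windows of 50 bp each side (1.10, exact test, adjusted p = 0.905). The same was so in pairs that both lay in first introns (1.38, exact test, adjusted p = 0.0593). It was kept with paired windows on the other side (1.34, exact test, adjusted p = 0.00495) and 2000 bp away (1.32, adjusted p = 0.00794). TATCGAT, the site of the promoter factor DREF, was less frequent at summits, at 1.56% against 3.25% (odds ratio 0.468, exact test, adjusted p = 0.0281), and this call was lost with either replicate alone (odds ratios 0.50 and 0.824). Paired windows on the other side (0.667, exact test, adjusted p = 0.443) or 2000 bp away (0.548, adjusted p = 0.139) lost it too. So did pairs that both lay in first introns (0.600, exact test, adjusted p = 0.522). Windows of 200 bp each side kept it (0.562, exact test, adjusted p = 0.0124). Neither call was made at first-intron summits only. GAGAG was also called higher at later-intron (odds ratio 1.40), promoter (1.38) and non-coding TSS summits (1.65), but not at intergenic ones (1.29). TATCGAT was also called lower at later-intron summits (0.292) and was called higher at promoter summits (5.11). Of the paired windows of first-intron peaks, 307 (20.8%) were centred within 500 bp of a coding TSS. The sites of Zelda (CAGGTAG, 1.08% against 1.49%), Su(H) (GTGGGAA, 2.30% against 2.64%), AP-1 (TGANTCA, 4.87% against 5.96%), GATA factors (AGATAAG, 3.52% against 2.84%), homeodomains (TAATTA, 14.6% against 14.2%), the grainy head word (AACCGGTT, 3 summits against 7 paired windows) and the other 9 E-boxes did not pass.

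The motif content of first-intron summits was not distinguished from that of later-intron or intergenic summits. Of the 19 motifs, 0 passed Fisher's exact test against later introns (0% called; 1 had an unadjusted p under 0.05) and 0 against intergenic peaks (0%; again 1 under 0.05). That motif was CAAGTG in both, at 14.7% of first-intron, 18.9% of later-intron and 19.1% of intergenic summits (exact test, adjusted p = 0.0889 and 0.0557). CAACAGGTG stood at 1.49%, 1.99% and 2.41% (odds ratio against later introns 0.744, interval 0.366 to 1.55). Against promoter peaks 6 of 19 passed (31.6%). TATCGAT was at 1.56% of first-intron and 10.5% of promoter summits (odds ratio 0.134, exact test, adjusted p = 7.55e-31), CAGCTG at 9.41% and 16.8% (adjusted p = 3.72e-10) and CAACTG at 10.6% and 15.5%. CAAATG (22.5% and 15.9%), CATATG (8.26% and 4.92%) and CACATG (10.3% and 7.70%) were more frequent in first introns.

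Among all words of 6 bases, each merged with its reverse complement, 185 differed between first-intron summits and paired windows (8.89%; exact McNemar test, adjusted p under 0.05 over all words and 5 locations). Of these 92 were higher (4.42%) and 93 lower (4.47%) at summits. CAACAG led, at 22.8% of summits and 10.4% of paired windows (odds ratio 2.57, interval 2.07 to 3.21, exact McNemar test, adjusted p = 3.52e-17). GCAACA (28.1% against 16.9%), AACAGG (odds ratio 1.97) and ACAGGT (2.02) overlap it or the longer Snail-family word, and AACAAG (2.07) lies in CAACAAGTG. AGTGTA (odds ratio 2.42), CTACAC (2.26) and ACAGTG (2.18) share letters with each other, and CTGTAC (2.00) and AGCCTA (1.97) completed the 10 highest. CAACAG passed in all 12 alternative settings, as did AACAAG and, of the words that share its letters, both AACAGG and GCAACA, whereas AGCCTA passed in 2.

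The 5 lowest words were rich in G and C, and all but CTGGAC held a CG. The odds ratio of TCCGGA was 0.333, that of CCGGAG 0.339, that of CGATCG 0.362, that of AGTCCG 0.370 and that of CTGGAC 0.394, so each was less frequent at summits. The summit windows of first-intron peaks had a median GC content of 37.8%, against 40.8% for their paired windows. With only the 1045 pairs in which the paired window was also centred in a first intron, a choice made after seeing the data, 46 words passed, 32 higher and 14 lower, and 40 of them were among the 185. None of the 5 lowest words passed there, with odds ratios of 0.353 for TCCGGA, 0.467 for CCGGAG, 0.609 for CGATCG, 0.455 for AGTCCG and 0.512 for CTGGAC. Among the 10 highest ACAGGT (odds ratio 1.77), like CTGTAC (1.84) and AGCCTA (2.00), did not pass. These pairs were fewer, and each of the 8 words kept its direction. The GC medians of these pairs were 37.8% and 40.3%, so a gap remained in first-intron sequence alone; its part in the counts was not tested.

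Longer words were read after the 6-base words had been seen, and their shares are given without a test. The pattern CAACANNTG, with any bases in the middle, was at 168 first-intron summits (11.4%, 9.85 to 13.1) and 64 paired windows (4.33%, 3.41 to 5.5). CAACAAGTG was its most frequent form, at 39 summits (2.64%, 1.94 to 3.59) against 4 paired windows (0.271%), ahead of CAACAGTTG (23 against 3), CAACAGGTG (22 against 5), CAACAAATG (19 against 9) and CAACAGCTG (14 against 1). The whole pattern CAACANNTG was more frequent in the other classes, at 15.0% of later-intron, 15.4% of intergenic and 13.4% of promoter summits. Their paired windows held it in 4.91%, 5.19% and 4.99%. CAACAAGTG was at 4.38% of later-intron and 4.34% of intergenic summits and at 2.78% of promoter summits. In the leading first-intron peaks of replicates 3 and 4 it was at 2.81% and 2.06%, against 0.603% and 0.709% of paired windows. By signal, 15 of the 39 were in the stronger 738 members and 24 in the rest. The word CAACAAGT, without the closing G, was at 100 first-intron summits (6.77%) and 15 paired windows (1.02%). CTACACTG, which extends CTACAC, was at 24 summits and 4 paired windows.

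**Figure D4:**
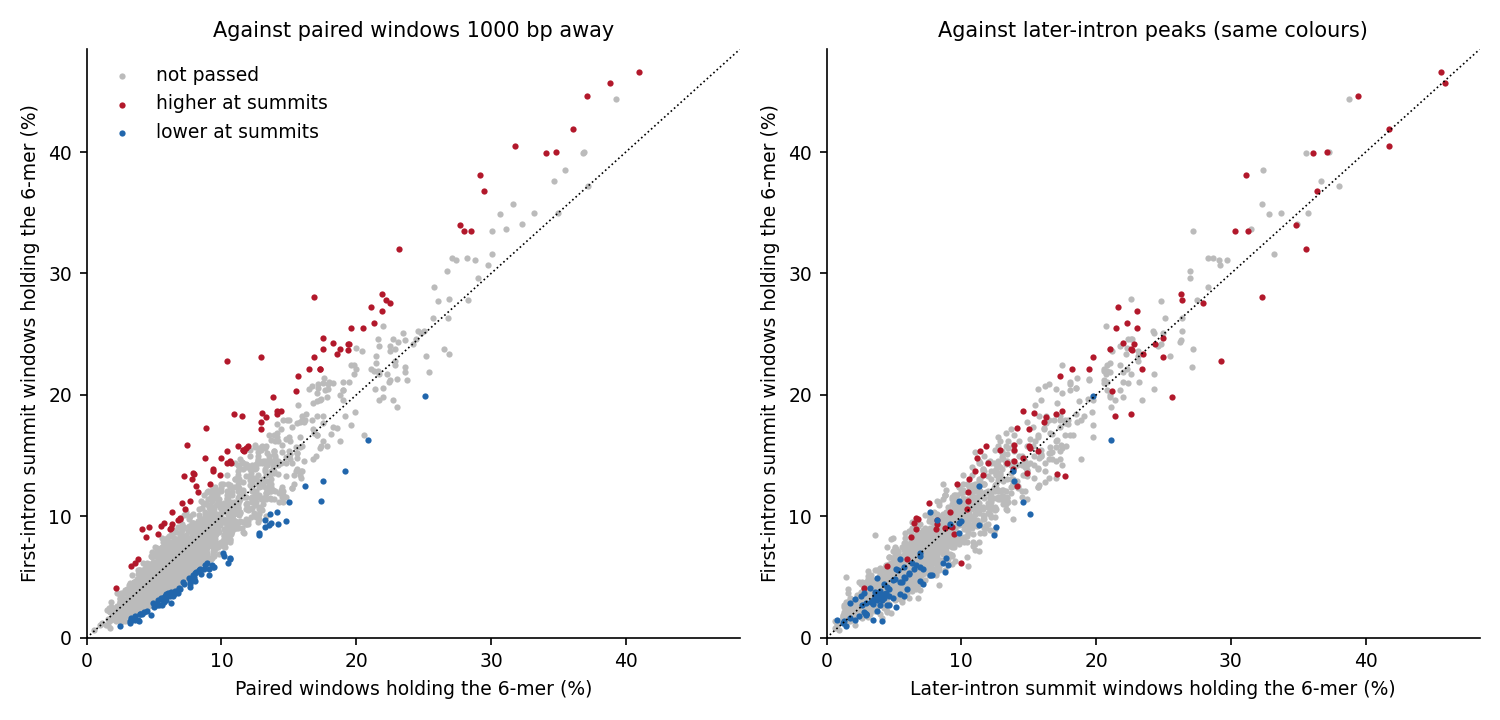
Share of first-intron summit windows (%) that held each word of 6 bases, against the share of paired windows 1000 bp away (left) and of later-intron summit windows (right); each point is 1 word, red where higher and blue where lower at first-intron summits than in paired windows (exact McNemar test), and the dotted line marks equality. On the left 92 words lie above and 93 below the band of the others, and on the right the red words lie on both sides of the line.

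Against later-intron summits, 3 words differed (0.144%). AGCGCG was at 5.01% of first-intron and 1.46% of later-intron summits (an odds ratio of 3.56 in Fisher's exact test, with adjusted p = 0.0120), CTTTAC at 8.46% and 3.59% (adjusted p = 0.0120) and CCGGAG at 1.35% and 4.12% (adjusted p = 0.0496). With replicate 4 alone 0 passed, with replicate 3 alone 3, and with windows of 200 bp each side 9. CAACAG was at 22.8% of first-intron and 29.3% of later-intron summits (exact test, adjusted p = 0.193).

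The 863 host genes were 14.9% of the 5804 protein-coding genes with any eligible first-intron sequence, and 31.4% of the 2484 with at least 1000 bp of it were hosts. A single first-intron peak was found in 525 genes, 2 to 4 in 296 and 5 or more in 42, which together held 265 peaks. The share of hosts rose with the eligible length, from 2.50% of genes under 1000 bp to 14.0%, 23.6%, 34.3%, 49.3% and 63.5% (57.6 to 69.0) of genes with 20000 bp or more. Of the hosts, 505 (58.5%) also had an optimal peak within 500 bp of one of their own TSSs, against 26.4% of the 4941 genes without a first-intron peak. The same held in each length bin, with 33.7% to 67.4% of hosts and 23.1% to 37.6% of the others. No test was made of this difference.

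The most first-intron peaks lay in sbb, with 15 (FBgn0285917; 2R, 18278198 to 18357296, minus strand) and signals of 212 to 2220, a median of 354, in 54770 bp of eligible sequence. tara, a regulator of the cell cycle and of sleep (FBgn0040071; 3R, 16225651 to 16260329), had 13 with signals of 194 to 1654, and shn, a zinc-finger cofactor of Dpp signalling, and Tlk had 11 each. ush, the forkhead gene CHES-1-like and the zinc-finger gene jing had 9 each. Per eligible length they ran from 0.0876 peaks per kb in jing to 0.648 in CHES-1-like. All 7 genes also had a promoter peak, and 1 of their first-intron peaks, in shn, held CAACAGGTG. Over all first-intron peaks the word was at 1.49% of summits. scrt itself had 0 first-intron peaks in its 1033 bp of eligible sequence.

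First-intron summits lay a median of 3290 bp (quartiles 1350 and 8301) from the TSS of the host transcript, in first introns of median length 9309 bp. For 542 of the 1477 the same base lies in a later intron of another transcript of the host, so that "first intron" depends on the transcript used there. Several host genes share the site in 62 peaks, and 180 (12.2%) were within 500 bp of another optimal peak.

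Hosts were counted in 21 gene lists, set beside the number that each list would have if its genes followed the share of all genes in the same length bins. The members of the lists were chosen with earlier results of these data known, so their counts describe these sites and are no test. In 7 of the 21 lists the count was above that number. Ecdysone response genes, which carry the steroid hormone signal, had a first-intron peak in 10 of 13 (76.9%, 49.7 to 91.8; 5.84 by length), against 14.9% of all genes with eligible sequence. They were led by br, a BTB zinc-finger factor (2350, with 6 peaks), Hr3, a nuclear receptor (2167, with 5) and Eip74EF, an ETS factor (1395, with 3). The 3 without were EcR, the receptor itself, E23 and Eip93F.

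Growth-factor and junction genes followed. Dpp and Wnt signalling had 13 of 24 (8.12 by length), led by shn (1576), the signal transducer gene Mad (751) and the Wnt receptor gene fz (650). EGF receptor and JNK signalling had 11 of 24 (6.55), led by aos, a secreted EGF receptor inhibitor (1022), S, also called Star, which traffics the ligand (697), and vn, a ligand (538). Epithelial polarity and junction genes had 9 of 18 (4.78), led by cno (793), aPKC (659) and crb (532), and the strongest peak of crb held CAACAGGTG. Circadian clock genes had 5 of 8 (2.74), with Pdp1 at 769, cwo at 365 and dco at 352. The list named pan-neuronal RNA-binding factors had 6 of 15, level with its number by length (5.97), led by mub (790), pum (630, with 6 peaks) and brat (339). In that list elav, fne and Rbp9 were among the genes without a first-intron peak. Glial genes had 4 of 18 (3.34), led by Gs2 (773), nrv2 (418) and pnt (358).

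Of the lists with fewer host genes than the number by length, 5 are described first, and no difference was tested. In the Dpr, DIP, Beat and Side genes, cell-surface proteins of synaptic matching, 4 of 52 had one (7.69%, 3.03 to 18.2; 17.2 by length), beat-VII (405), DIP-gamma (287), dpr8 (230) and side. Receptors of amines and peptides had 10 of 48 (16.7), led by Lkr (441), MsR2 (383) and CCHa2-R (313). Proneural and neuroblast transcription factors had 1 of 21 (5.12), grh, with 648. Neuronal adhesion molecules had 6 of 24 (9.45), led by Ten-a (586, with 5 peaks), Nlg2 (559) and caps (450), and axon guidance genes 6 of 26 (7.84), led by fra, the netrin receptor (557), robo3 (487) and unc-5 (449). Among genes with at least 1000 bp of eligible sequence, 31.6% of the adhesion and 33.3% of the axon guidance genes were hosts, against 31.4% of all such genes.

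Other neuronal lists had counts of host genes close to the number by length. Potassium channels had 4 of 16 (4.46), led by KCNQ (1479), Irk1 (551) and Sh (390), and calcium and sodium channels 1 of 11 (1.59), unc80. Transmitter receptors had 5 of 21 (5.15), led by mGluR (553), mAChR-A (389) and nAChRalpha6 (229), and presynaptic and vesicle genes 6 of 27 (6.39), led by Rbp, a RIM-binding protein (1848), dnc, a cAMP phosphodiesterase (959, with 5 peaks) and Fife (456). Neuronal identity transcription factors had 9 of 33 (10.7), led by pdm3 (3632), br (2350) and lola (912). Outside the nervous system, muscle and mesoderm genes had 4 of 26 (4.46), led by Mef2 (4649, with 8 peaks), mew (690) and mbc (410). Hox genes had 2 of 8 (2.79), Antp with 6 peaks up to 518 and Abd-B with 2 up to 493. The list named Notch pathway had 2 of 14 (3.43), neur (531) and sano (370), whose place in that pathway was not checked. Of the 6 cytosolic ribosomal protein genes with eligible sequence 0 had a first-intron peak (0.150 by length).

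**Figure D5:**
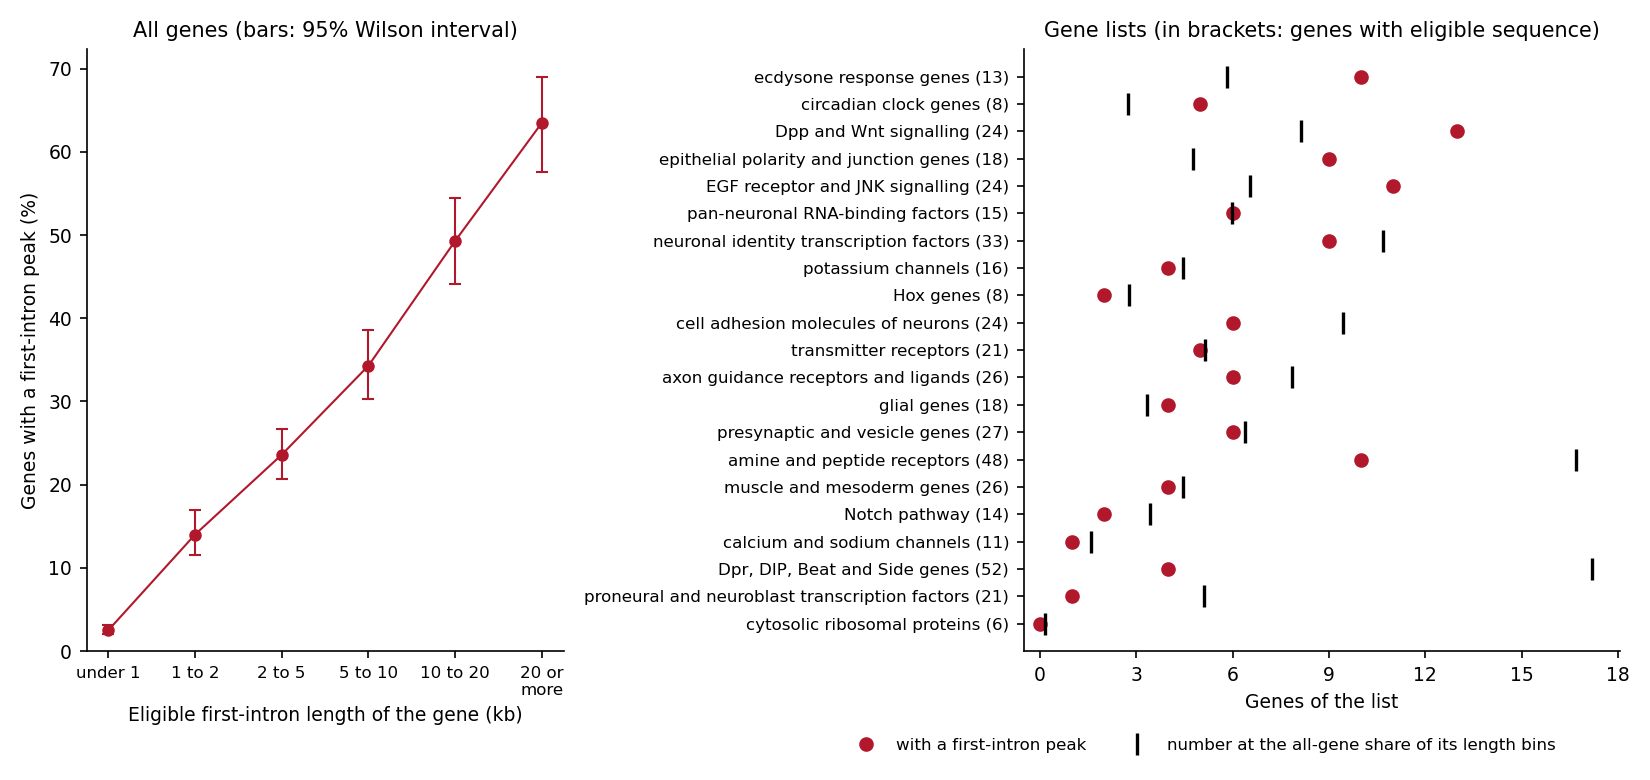
Left, share of protein-coding genes (%) with a first-intron peak by eligible first-intron length (kb), with Wilson 95% intervals; right, number of genes with a first-intron peak in each list (points) and the number at the all-gene share of the same length bins (ticks). The share rose from 2.50% to 63.5% with length, and ecdysone response genes (10 against 5.84) and Dpr, DIP, Beat and Side genes (4 against 17.2) lay far from their ticks in opposite directions.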

How the data were processed

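Peaks were deposited as lists on assembly dm6, per the labels, for each of the 2 replicates, for their pool and for an optimal list thresholded by the irreproducible discovery rate. The signal of each peak is the authors' deposited enrichment value on a scale set within a list, so lists were compared by rank only. The deposited −log10 q-value reached its maximum of 4.02 in 81.3% of the optimal list, so peaks were not ranked by it. The optimal peaks were exactly the strongest of 30000 pooled peaks. The sources used here name no caller, aligner or threshold; the read depth is unknown, and intervals cover counting error only.

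Summits were placed in Ensembl release 115 annotation, transposable elements left out. Windows of 100 bp each side were read from the RefSeq Release 6 sequence on both strands; the side of the paired window was drawn with a fixed seed. Shares were compared with two-sided exact tests (Fisher, McNemar) and Benjamini-Hochberg adjustment at 0.05. The procedures were tested on simulated data. Tests were run with scipy 1.17.1 under Python 3.11.15, tables handled with pandas 2.3.3 and numpy 2.4.6, and plots drawn with matplotlib 3.10.9. Named are the 20 strongest members, the genes with most members, up to 3 genes per list, and the 10 highest and 5 lowest 6-base words. All 589 distinct list genes used matched by symbol; 1 listed symbol did not. The rule, members, lists and tests were chosen with earlier results of these data known. Alternatives were single replicates, the stronger 3203 peaks, merged summits, and other TSS, transcript, window and overlap rules; counting transposable elements, pairing by location and distance bins were added after seeing the data.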

Additional observations from a re-analysis of the deposited data

How the results depend on the processing

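The excess of kept peaks in first introns over later introns held in 8 alternatives over all distances (odds ratio 1.26 to 1.49). It passed in none of the 5 distance bins (1.03 to 1.33). The density ratio was 1.57 to 2.51 in those bins. Over all distances it stayed at 2.44 to 2.86 except with summits in the first intron of every spanning transcript (2.04). That rule also gave a first-intron share of 14.9%, 12.7% of genes as hosts, 107 called words (56 higher, 51 lower), 0 against later introns, an odds ratio of 3.00 for CAACAGGTG (exact test, not called), 0.794 for CAGGTG and 0.986 for the upper part of the list. With the upper 3203 peaks these were 21.2%, 8.67%, 67 (38 and 29), 0 and 4.00 (not called), with 97.6% overlap and 11 lists above their length number. With 1000 bp from every TSS they were 18.2%, 18.3%, 61 lower words, 0 and 4.00 (not called). Replicates alone gave shares of 22.0% to 23.3%, odds ratios for the upper part of 1.19 to 1.24 and for CAACAGGTG of 4.00 to 5.40, 0 to 3 words against later introns, 43.8% to 55.6% of copies within 25 bp, and overlaps of 87.9% and 89.1%. Windows of 50 bp gave 110 words (57 higher, 53 lower) and 0 against later introns, and of 200 bp 9. Paired windows 2000 bp away gave 302 words, 170 of them lower, and an odds ratio of 0.990 for CAGGTG, and paired windows of the same location 46 (32 and 14) with 4.67 for CAACAGGTG (not called). Overlap of 50% gave 72.9%, summits within 100 bp 72.4%, and genes with 1000 bp 31.4% as hosts. The causes were not tested. Samples could not be paired between groups because both replicates form 1 group, and the only pairs were windows of the same peak.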
